A study of Solanum lycopersicum with 12 samples.

Results

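This account covers 1 comparison in a study of tomato (Solanum lycopersicum) fruit: the mutant called cr against wild type (WT, labelled A) at mature green, before colour change shows. Transcripts were counted by RNA sequencing in fruit pericarp, the fleshy wall of the fruit. The members are the 3 cr and 3 WT mature green libraries, 6 of the 12 libraries of the series, and the 19664 of 35882 features that passed a low-count filter. The other 6 libraries, 3 cr and 3 WT at breaker, the stage of first colour, entered the fit and are used for comparison. The labels give mature green as 35 and breaker as 38 without saying what is counted. They do not name the gene or allele changed in cr, how the mutant was made, whether it is 1 line, or which cultivar the WT is. No allele, treatment or transgene shared by both genotypes is given. Whether replicate libraries derive from different plants is not given either, and the p-values therefore reflect only how far libraries of a group differ, which may be technical.

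A mature green tomato is full grown, and its pericarp still holds chloroplasts that carry out photosynthesis. Ripening begins when the fruit turns to self-sustaining ethylene production, made from methionine by ACC synthases and ACC oxidases, and under the control of NAC, SBP-box and MADS-box transcription factors. Chloroplasts then become chromoplasts, cell wall enzymes soften the flesh, and carotenoids and aroma compounds build up. At mature green most of these programmes are at a low level, so the comparison asks which functions already differ between the genotypes ahead of them.

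Levels are given as CPM, a gene's counts relative to the scaled library total, and every value is from 3 libraries a side. Total counts in the 6 mature green libraries ran from 17802980 to 19426192. On the first principal component of the 6 libraries, which held 45.2% of the variance, the cr libraries scored 35.6, 32.6 and 31.1 and the WT libraries -27.8, -24.4 and -47.2. Replicate 3 of WT thus stood apart from the other 2 WT libraries, and results that rest on it are given with and without it. Lists for seeds, xylem, and pollen and flowers stood for other tissues that pericarp samples could hold. The seed list summed to 7100.4, 5627 and 6516 CPM in cr, against 5075, 6676 and 8108 CPM in WT, and the xylem list to 268, 256 and 269 CPM in cr, against 261, 244 and 259 CPM in WT. The pollen and flower list summed to 745, 683 and 714 CPM in cr, against 839, 828 and 898 CPM in WT. The seed and xylem sums of cr and WT overlapped, and those of pollen and flower did not. Of 53 seed genes 1 rose and 4 fell, and of 16 pollen and flower genes 1 fell. Although the seed sums overlapped, 42 seed genes had a log2 fold change below 0 and 11 above. The seed median was -0.50, and -0.22 without WT replicate 3. Medians of the xylem list and of the pollen and flower list were 0.16 and -0.08. None of 12 xylem genes passed the test. Calls were 9.43% of the seed list and 6.25% of the pollen and flower list, against 4.34% of all genes, and the part of other tissues in the results was not tested.

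Of 19664 genes tested, 853 differed between cr and WT at mature green (4.34%), 338 higher in cr (1.72%) and 515 lower (2.62%). A gene is called here at an adjusted p under 0.05 in the quasi-likelihood test of edgeR, adjusted over all genes by the Benjamini-Hochberg method. Most differences were small: 96 of the higher and 227 of the lower genes changed by at least 1 on the log2 scale, which is a factor of 2. The median size was 0.647 among the higher and 0.91 among the lower genes. The median log2 fold change of all tested genes was -0.01. The 3 cr libraries did not overlap the 3 WT libraries for 846 of the called genes, and for 27.2% of all tested genes. Pericarp is a bulk tissue, in which fewer cells of a type and less RNA per cell cannot be told apart.

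Individual calls were fragile. A fit to the 6 mature green libraries alone gave 508 higher and 506 lower genes, and DESeq2 on all 12 libraries 592 higher and 860 lower. With 1 cr library left out, replicates 1, 2 and 3 in turn, 373, 331 and 406 genes were called, and with 1 WT library left out 512, 641 and 243. Replicate 3 of WT was the library whose absence cost most, since 616 of the 853 calls were lost without it, and the 243 calls that remained make 1.24% of the genes tested. A set of 199 genes (1.01%) kept their call with each of the 6 libraries left out and did not overlap between the genotypes, 73 higher in cr (0.371%) and 126 lower (0.641%). These are called stable below. Called genes named below are stable unless the loss of a call is given beside them. Transketolase, the 22 kDa photosystem II protein, serine-glyoxylate aminotransferase, elongation factor G, CURT1B, the thylakoid lumen and FtsH genes, Solyc09g091430, GIGANTEA, Solyc10g047150 and Solyc02g062815 were chosen after their values were seen, as were others marked so where they appear.

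**Figure D1:**
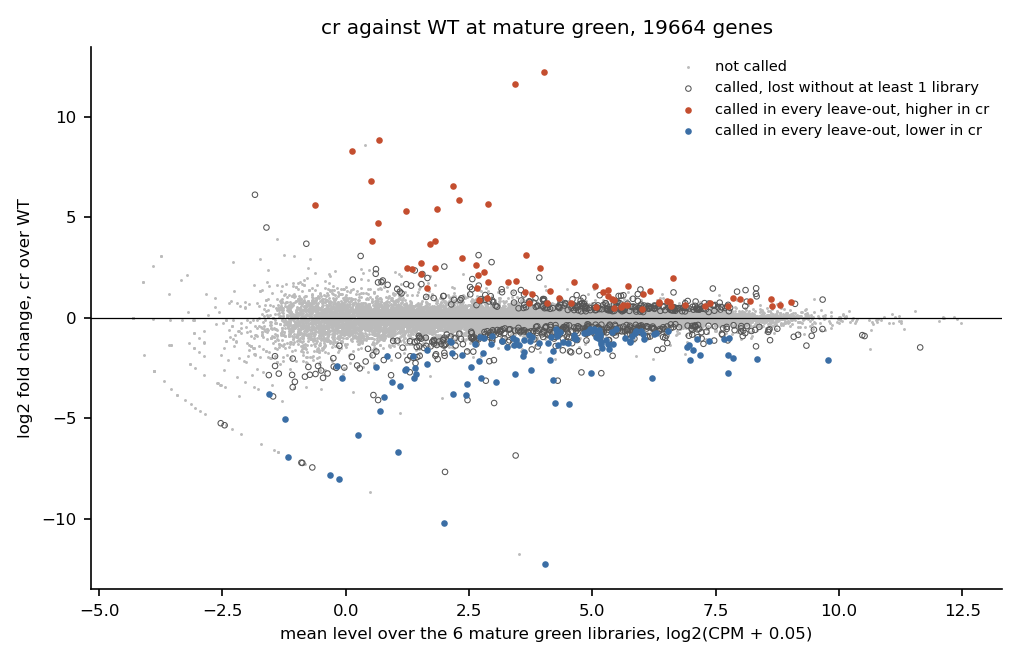
Log2 fold change of cr over WT at mature green (y axis) against the mean level over the 6 mature green libraries in log2(CPM + 0.05) (x axis, a log scale) for the 19664 tested genes. Grey dots did not pass the test, open circles are called genes that lost the call without at least 1 library, and filled red and blue points are the 73 higher and 126 lower genes that kept it.

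Genes of carbon fixation in the chloroplast were higher in cr. Of 19 Calvin cycle genes tested 7 rose and none fell (36.8%, where 4.34% of all genes were called). Their median log2 fold change was 0.40, against -0.01 over all genes. Between 2 and 6 of them were called with 1 library left out, and 3 without WT replicate 3. The summed level of the list was 2662, 2748 and 2586 CPM in cr, against 1984, 1918 and 1944 CPM in WT, with no overlap. Phosphoribulokinase (Solyc08g076220), which makes the carbon dioxide acceptor ribulose bisphosphate, had 319, 309 and 295 CPM in the cr libraries, against 165, 156 and 142 CPM in the WT libraries (log2 fold change 1.0 ± 0.13 (SE), adjusted p = 0.00151). Rubisco activase (Solyc10g086580), which keeps the carboxylating enzyme active, had 515, 519 and 512 CPM in cr, against 277, 274 and 259 CPM in WT (log2 fold change 0.93 ± 0.16 (SE), adjusted p = 0.00733). In both genes the 3 cr libraries lay close together and above every WT library. Transketolase (Solyc10g018300), of the regenerating arm of the cycle, had 414, 471 and 422 CPM in cr, against 224, 213 and 187 CPM in WT, a log2 fold change of 1.07. Its call was lost without cr replicate 2 or WT replicate 3 (adjusted p = 0.0585 and 0.082). The chloroplast fructose bisphosphatase gene Solyc09g011810, which falls outside the list and was chosen after its values were seen, had 91.5, 98.8 and 81.6 CPM in cr, against 42.6, 43.6 and 34.9 CPM in WT (log2 fold change 1.17 ± 0.16 (SE), adjusted p = 0.00221). The large subunit of ADP-glucose pyrophosphorylase (Solyc01g079790), the first committed step of starch synthesis, had 19.6, 20.3 and 17.2 CPM in cr, against 9.54, 9.14 and 6.55 CPM in WT. It was the 1 gene of 28 starch genes that rose (log2 fold change 1.18 ± 0.19 (SE), adjusted p = 0.00652). Of that list 2 others fell (10.7% called in all), and the list's median was -0.02.

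Among genes of the light reactions a smaller share was called than in the Calvin cycle list, and no antenna gene was called. Of 39 photosystem and electron transport subunits 5 rose and none fell (12.8%, against 4.34% of all genes), with a median log2 fold change of 0.46. The summed level was 4672, 4923 and 4654 CPM in cr, against 3308, 3418 and 3349 CPM in WT, and the groups did not overlap. Each of these calls was lost when some libraries were left out, which left between 0 and 2 called, and 0 without WT replicate 3. The subunit with the greatest fold change among the called ones was the 22 kDa photosystem II protein (Solyc06g060340), which sheds excess light as heat. It had 245, 262 and 258 CPM in cr, against 114, 90.8 and 73.3 CPM in WT (log2 fold change 1.46 ± 0.32 (SE), adjusted p = 0.0239), and lost its call without WT replicate 2 or 3 or any 1 cr library (highest adjusted p = 0.117). None of 31 genes for chlorophyll a-b binding proteins, the light-harvesting antennae, passed the test. Their median log2 fold change was 0.19, and the summed level was 1795, 1795 and 2110.0 CPM in cr, against 2036, 1759 and 1774 CPM in WT, which overlapped. The most abundant antenna gene by FPKM, Solyc03g005760, had 190.3, 173 and 271 CPM in cr, against 474, 298 and 404 CPM in WT, with a log2 fold change of -0.89 (adjusted p = 0.101). Its groups did not overlap, cr being the lower, although the difference did not pass the test. Of 23 chlorophyll synthesis genes 1 rose (4.35%, near the 4.34% of all genes called).

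Smaller thylakoid components stood among the stable genes. A group of 28 genes whose Swiss-Prot match names the thylakoid or the NDH complex of cyclic electron flow was put together after the values were seen. It had 6 higher and no lower members, 3 of them stable. The lumenal NDH subunit gene Solyc05g007780 had 18.5, 19.9 and 14.2 CPM in cr, against 7.99, 6.62 and 7.31 CPM in WT (log2 fold change 1.26 ± 0.23 (SE), adjusted p = 0.0103). On the other strand a second feature overlaps it, with 644 counts summed over 12 libraries. The sources used here do not give the strand setting of the counting, so for this and later such genes the reads of both strands cannot be told apart. CURVATURE THYLAKOID 1B (Solyc10g005050), which bends membranes at grana edges in Arabidopsis, had 144, 149 and 137 CPM in cr, against 94.2, 91.5 and 92.6 CPM in WT. For the thylakoid lumen protein gene Solyc08g079110 the values were 55.7, 58.7 and 56.6 CPM in cr, against 36, 42.5 and 38.4 CPM in WT. The 2 log2 fold changes were 0.63 ± 0.12 and 0.55 ± 0.09 (SE). Of 29 chloroplast FtsH, Clp and Deg proteases, a group put together after the values were seen, 1 rose and none fell (3.45%, against 4.34% of all genes). It was the FtsH gene Solyc03g007330, of the family that clears damaged chloroplast proteins, which had 106, 104 and 98.7 CPM in cr, against 61.1, 62.6 and 58.4 CPM in WT (log2 fold change 0.76 ± 0.09 (SE), adjusted p = 0.000695).

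**Figure D2:**
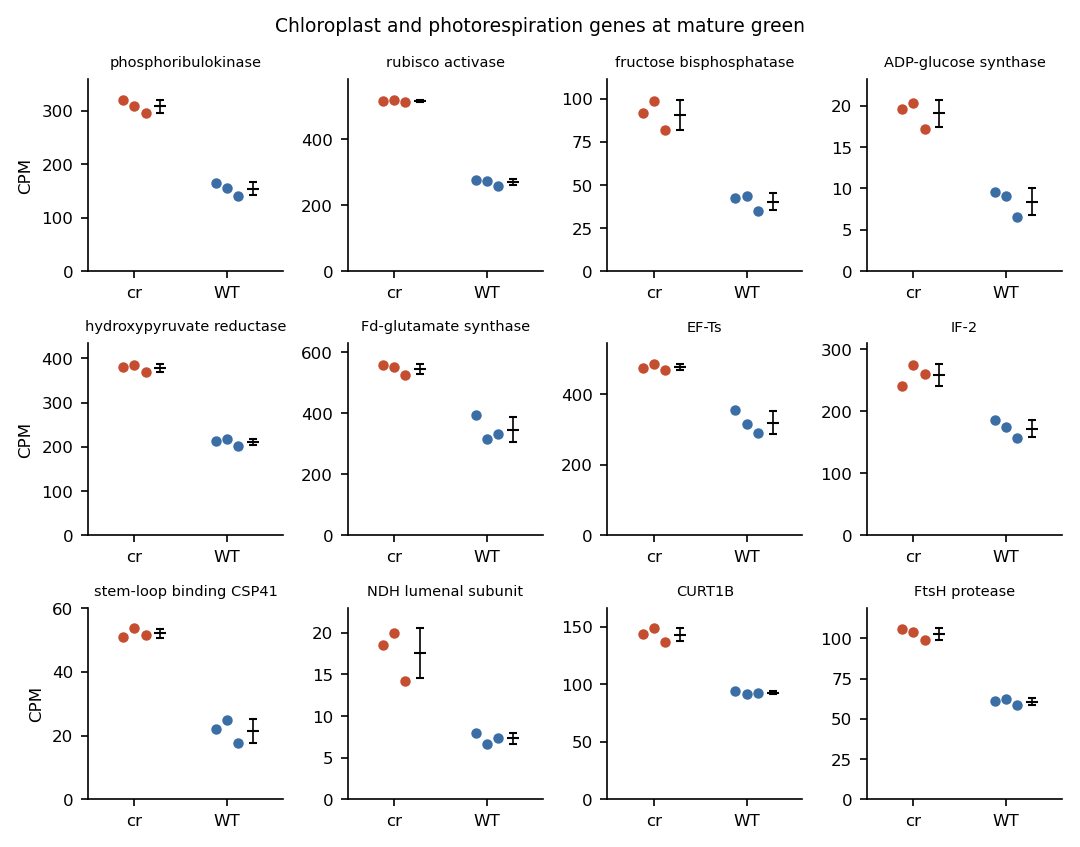
Levels in CPM (y axis, from 0) of 12 chloroplast and photorespiration genes in the 3 cr (left) and 3 WT (right) mature green libraries, replicates 1 to 3 from left to right, with the mean and SD of each group in black. In every panel the 3 cr libraries lie above the 3 WT libraries, for example 319, 309 and 295 CPM in cr against 165, 156 and 142 CPM in WT for phosphoribulokinase.

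Photorespiration, which recovers the carbon lost when Rubisco takes up oxygen, showed a like direction. In a group of 21 genes put together after the values were seen, 5 rose and 1 fell, where 1.72% of all genes rose and 2.62% fell. Peroxisomal hydroxypyruvate reductase (Solyc01g111630, described as glycerate dehydrogenase) had 381, 385 and 368 CPM in cr, against 213, 217 and 202 CPM in WT (log2 fold change 0.84 ± 0.12 (SE), adjusted p = 0.00283). Serine-glyoxylate aminotransferase (Solyc12g099930), of the step before it, had 465, 422 and 443 CPM in cr, against 188, 196 and 199 CPM in WT, a log2 fold change of 1.19 ± 0.23 (SE). That call was lost without WT replicate 3 (adjusted p = 0.0603, and 0.0133 with all libraries). Ferredoxin-dependent glutamate synthase (Solyc03g063560), which makes glutamate as the ammonia set free in the cycle is recovered, had 557, 551 and 526 CPM in cr, against 394, 315 and 331 CPM in WT (log2 fold change 0.65 ± 0.10 (SE), adjusted p = 0.00373). The chloroplast NADP-malate dehydrogenase (Solyc03g071590), which exports reducing power as malate, had 109, 133 and 109 CPM in cr, against 62.5, 74.4 and 59 CPM in WT (log2 fold change 0.84 ± 0.14 (SE), adjusted p = 0.00656). GDP-L-galactose phosphorylase 1 (Solyc06g073320), a controlling enzyme of ascorbate synthesis, had 649.7, 649 and 691 CPM in cr, against 454, 358 and 347 CPM in WT (log2 fold change 0.78 ± 0.11 (SE), adjusted p = 0.00242). In each of these 5 genes every cr library lay above the highest WT library.

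Part of the machinery of chloroplast gene expression was also called higher in cr. A group of 32 chloroplast translation factors and tRNA ligases, chosen after the values were seen, had 9 higher and no lower members (28.1%, against 4.34% of all genes). Because the group was chosen with its values known, that share is no independent support. Of the 32 genes, 30 had a log2 fold change above 0. With 1 library left out 2 to 6 were called, and 2 without WT replicate 3. Elongation factor Ts (Solyc07g018360) had 475, 485 and 469 CPM in cr, against 354, 315 and 289 CPM in WT, and initiation factor IF-2 (Solyc07g056020) had 241, 276 and 261 CPM in cr, against 186, 175 and 157 CPM in WT. The log2 fold changes were 0.58 ± 0.10 and 0.59 ± 0.09 (SE), with adjusted p = 0.00756 and 0.00591. Elongation factor G (Solyc08g079180) was at 0.71, a call lost without WT replicate 3 (adjusted p = 0.0597, and 0.0107 with all libraries).

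Some genes for proteins that bind chloroplast RNA were also higher, but the pentatricopeptide repeat family, which binds RNA in chloroplasts and mitochondria and was chosen after its values were seen, had 8 higher of 452 (1.77%, near the 1.72% of all genes), none lower and none stable. A pair of genes for the chloroplast stem-loop binding protein of 41 kDa, an RNA-binding protein of the plastid, were both higher. Solyc06g073260 had 51.1, 53.8 and 51.6 CPM in cr, against 22.1, 25.1 and 17.6 CPM in WT, and Solyc09g065180 had 126, 129 and 106 CPM in cr, against 69.2, 70.3 and 69.3 CPM in WT. Their log2 fold changes were 1.27 ± 0.21 and 0.79 ± 0.14 (SE), and neither pair of groups overlapped. The chloroplast ribonucleoprotein gene Solyc09g090960 was higher by 0.43, and a plastid transcription component gene (Solyc03g111050) by 0.49 on the log2 scale. CHUP1 (Solyc05g009930) and PLASTID MOVEMENT IMPAIRED 1 (Solyc10g006330), which position chloroplasts by light in Arabidopsis, were higher by 0.58 and 0.80. CHUP1 overlaps an opposite-strand feature with 10641 counts. The last 3 genes were chosen after their values were seen.

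Plastid-type ribosomal proteins themselves were called mostly higher. Of 81 tested 8 rose and 2 fell (12.3%, against 4.34% of all genes), with a median of 0.11. The log2 fold change was above 0 for 55 of them and below 0 for 26. The higher calls numbered 0 to 3 with 1 library left out, and 1 without WT replicate 3. The most abundant member by FPKM, the 50S protein L27 gene Solyc11g068820, had 163, 170.2 and 160.4 CPM in cr, against 121, 121 and 127 CPM in WT (log2 fold change 0.42 ± 0.09 (SE), adjusted p = 0.0237). It lost its call with any 1 library left out (highest adjusted p = 0.0928). Both lower members were stable. One, Solyc10g047150 (50S protein L4), had no count in cr and 97 counts in WT. The other, the S1-like gene Solyc04g072036, had 16.9, 17.2 and 14.9 CPM in cr, against 32.1, 32.8 and 38.3 CPM in WT (log2 fold change -1.08 ± 0.11 (SE), adjusted p = 0.000185). Its Swiss-Prot match is PIGMENT DEFECTIVE 338, and its identifier falls within a run of lower genes on chromosome 4 described below.

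Over the whole table, 1346 genes have a Swiss-Prot match whose name places the protein in the chloroplast. Of these 102 were higher and 27 lower in cr, and 889 of the 1346 had a log2 fold change above 0 (median 0.10). Called members made up 9.58% of that class, against 4.34% of all genes. Without WT replicate 3 the counts were 21 higher and 6 lower. Genes with a mitochondrial name had 14 higher and 4 lower of 692, a share of 2.6%, with a median of 0.02. Both classes were chosen after the values were seen.

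Ripening genes were on the lower side in cr before ripening became visible. Of 30 ripening genes listed by name and tested, 9 were lower, none was higher, and 28 had a log2 fold change below 0, where the median of all genes was -0.01 and 2.62% of all genes were called lower. Calls that survived every left-out library were those of E8, ACS4 and EXP1. E8 (Solyc09g089580), an oxygenase gene switched on by ethylene in tomato fruit, had 382, 377 and 236 CPM in the cr libraries, against 1359, 978 and 1962 CPM in the WT libraries (log2 fold change -2.11 ± 0.31 (SE), adjusted p = 0.0033). The cr libraries reached at most 382 CPM, and the lowest WT library, replicate 2, held 978 CPM. ACS4 (Solyc05g050010), an ACC synthase of ripening fruit, had 3.43, 3.08 and 1.6 CPM in cr, against 14.1, 8.93 and 33.7 CPM in WT (log2 fold change -2.80 ± 0.49 (SE), adjusted p = 0.00803). WT replicate 3 was the highest and WT replicate 2 the lowest of the WT libraries for both genes. ACS2 (Solyc01g095080), the other ripening ACC synthase, had 0.587, 0.992 and 0.243 CPM in cr, against 26.1, 1.47 and 3.49 CPM in WT (log2 fold change -4.09 ± 1.05 (SE), adjusted p = 0.0458). WT replicate 1 alone was far above the others, and the call was lost without WT replicate 1 or 3 or any 1 cr library (highest adjusted p = 0.177). ACO1 (Solyc07g049530), the oxidase that releases ethylene, had 272, 142 and 248 CPM in cr, against 394, 281 and 403 CPM in WT (log2 fold change -0.70, adjusted p = 0.286). Its groups did not overlap, although the difference did not pass the test. As a list, 14 ethylene synthesis genes had 2 lower and no higher members, and 18 receptor and signalling genes had 1 higher and no lower ones. That 1 gene, Solyc01g088250, is described as a SUN domain protein, not as an ethylene receptor or signalling protein. Its call was lost with any 1 library left out.

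None of the transcription factors and ethylene receptors on the list passed the test at mature green. The NAC factor NOR (Solyc10g006880) had 162, 137 and 66.7 CPM in cr, against 218, 142 and 252 CPM in WT (log2 fold change -0.74, adjusted p = 0.178), and cr replicate 3 was the library that stood lowest. The SBP-box factor CNR (Solyc02g077920) had 109, 85.1 and 71.2 CPM in cr, against 132, 104 and 158 CPM in WT (log2 fold change -0.57, adjusted p = 0.188). Values of cr and WT overlapped for both factors. The MADS-box gene FUL1 (Solyc06g069430) had 114, 104 and 95.3 CPM in cr, against 149, 117 and 170.4 CPM in WT, without overlap (log2 fold change -0.48, adjusted p = 0.0809). FUL2 and TAGL1, other MADS-box regulators, had log2 fold changes of -0.09 and -0.11, and AP2a, which restrains ripening, at -0.45 (adjusted p = 0.639, 0.476 and 0.453). The ethylene receptors NR and ETR4 were at -0.04 and -0.19 (adjusted p = 0.968 and 0.755). GLK2 (Solyc10g008160), the factor that raises chloroplast development in green fruit, was at -0.47 (adjusted p = 0.408). SGR1 (Solyc08g080090), which starts chlorophyll breakdown, had 143, 203 and 98.7 CPM in cr, against 251, 167 and 292 CPM in WT (adjusted p = 0.136). Outside these classes, DML2 (Solyc10g083630), the DNA demethylase that ripening requires, had 411, 418 and 284 CPM in cr, against 783, 529 and 828 CPM in WT (log2 fold change -0.94 ± 0.23 (SE), adjusted p = 0.0386). The DML2 call was lost without WT replicate 1 or 3 or any 1 cr library (highest adjusted p = 0.156).

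**Figure D3:**
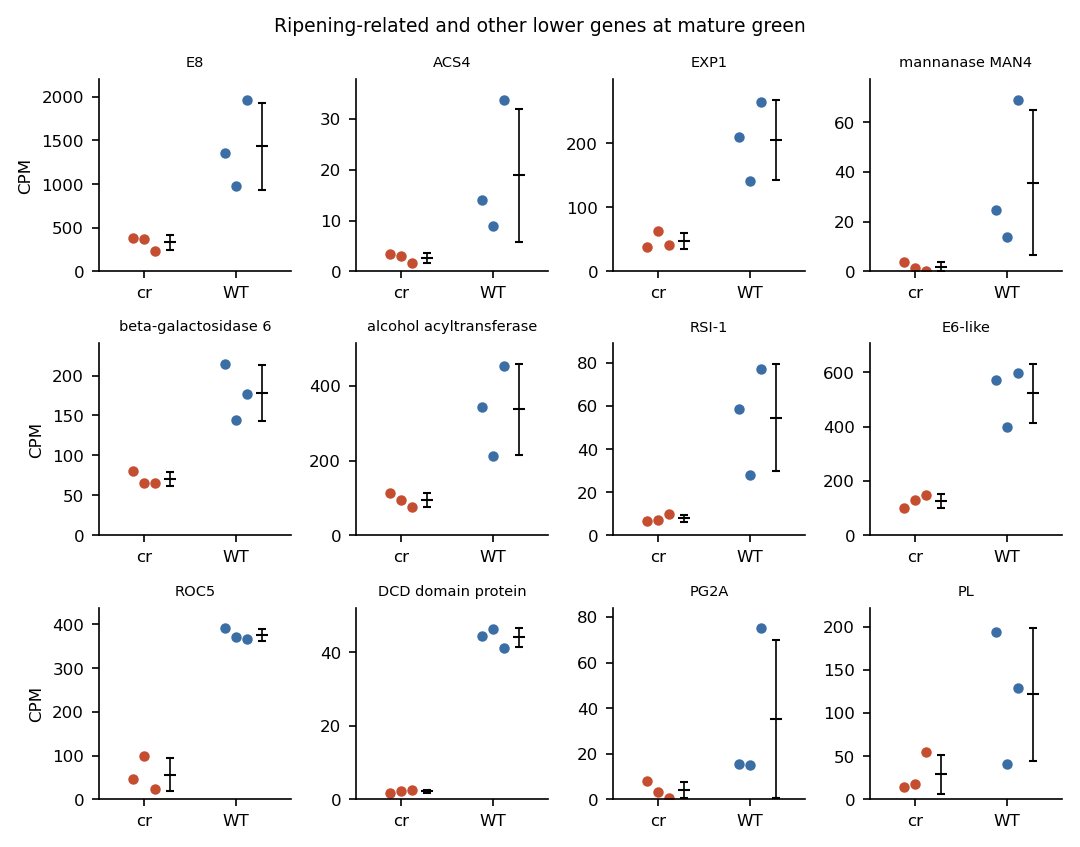
Levels in CPM (y axis, from 0) of 12 genes in the 3 cr (left) and 3 WT (right) mature green libraries, replicates 1 to 3 from left to right, with the mean and SD of each group in black. In 11 of the 12 panels every cr library lies below every WT library, and in that of PL, which did not pass the test (adjusted p = 0.0574), cr replicate 3 lies above WT replicate 2.

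Called cell wall genes were mostly lower in cr, in several families. EXP1 (Solyc06g051800), the expansin of ripening fruit that loosens walls, had 38.6, 62.7 and 41.7 CPM in cr, against 211, 141 and 265 CPM in WT (log2 fold change -2.11 ± 0.24 (SE), adjusted p = 0.00055). The mannanase MAN4 (Solyc01g008710), which cuts mannan in the wall, had 3.87, 1.44 and 0.291 CPM in cr, against 24.6, 13.7 and 68.9 CPM in WT (log2 fold change -4.25 ± 0.75 (SE), adjusted p = 0.00899). WT replicates ranged widely, with replicate 3 the highest, and every cr library lay below the lowest of them. Beta-galactosidase 6 (Solyc02g084720), which trims galactan side chains, had 80.6, 65.8 and 65.2 CPM in cr, against 214, 144 and 177 CPM in WT (log2 fold change -1.34 ± 0.22 (SE), adjusted p = 0.00683), and overlaps an opposite-strand feature with 3751 counts. In the list of 34 such hydrolases 4 fell and none rose (11.8%, against 4.34% of all genes). That list as a whole was little shifted, with a median of -0.08, 16 members above 0 and 18 below. Its summed levels in cr and WT overlapped. EXP1 was the 1 called member of 11 expansins (9.09%), whose median was -0.12, with 5 above 0 and 6 below. Of 18 polygalacturonases and pectate lyases 4 fell and 1 rose (27.8%). With 1 library left out 1 to 5 fell, 1 without WT replicate 3. PG2A (Solyc10g080210), the main pectin-degrading enzyme of ripe fruit, had 7.88, 3.37 and 0.825 CPM in cr, against 15.4, 15.2 and 75.1 CPM in WT (log2 fold change -3.13 ± 0.79 (SE), adjusted p = 0.0426). WT replicate 3 was the high library, and the call was lost without it or without cr replicate 2 or 3 (highest adjusted p = 0.216). PL (Solyc03g111690), the pectate lyase that softens fruit, had 13.8, 18.3 and 55.1 CPM in cr, against 194, 41.1 and 129 CPM in WT (log2 fold change -2.06, adjusted p = 0.0574), and its groups overlapped. A pectate lyase gene of low level, Solyc09g091430, had 0.294, 0.347 and 0.437 CPM in cr, against 5.31, 3.26 and 2.84 CPM in WT (log2 fold change -3.38 ± 0.61 (SE), adjusted p = 0.00971). A pectinesterase gene, Solyc11g070175, of an enzyme that prepares pectin for cutting, was higher in cr, with 45.3, 35 and 39.6 CPM in cr, against 25.8, 29.1 and 28 CPM in WT (log2 fold change 0.53 ± 0.10 (SE), adjusted p = 0.0108). It was the 1 higher gene of 28 pectinesterases and pectin acetylesterases, of which 2 fell (10.7% called, median -0.24). Those 2, Solyc06g009190 and Solyc08g075020, were at -1.11 and -0.78 on the log2 scale, and neither was stable.

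Some structural wall proteins were lower in cr as well. Of 22 fasciclin-like and arabinogalactan proteins, glycoproteins of the cell surface, 3 fell and none rose, with a median of -0.36. The arabinogalactan gene Solyc07g053640 had 22.9, 22.1 and 11.6 CPM in cr, against 42, 49.1 and 70.4 CPM in WT, and the fasciclin-like gene Solyc07g065540 had 4.4, 4.07 and 4.85 CPM in cr, against 11.8, 9.04 and 11.6 CPM in WT. Their log2 fold changes were -1.52 ± 0.26 and -1.28 ± 0.18 (SE). An E6-like gene (Solyc02g077710), named after a cotton fibre protein, was 1 of the most abundant stable genes by FPKM. It had 99.1, 129 and 149.7 CPM in cr, against 569.7, 398 and 597 CPM in WT (log2 fold change -2.05 ± 0.20 (SE), adjusted p = 0.000148). A pair of neighbours on chromosome 8 moved alike: the exostosin-like glycosyltransferase gene Solyc08g066690 (chromosome 8, 53608491 to 53611678, minus strand) had 104, 114 and 63.8 CPM in cr, against 357, 238 and 514 CPM in WT (log2 fold change -1.97 ± 0.27 (SE), adjusted p = 0.00213). The RRP46-like exosome gene Solyc08g066700 (chromosome 8, 53616917 to 53622390, plus strand), chosen after its values were seen, had 63.3, 79 and 46.3 CPM in cr, against 211, 167 and 299.9 CPM in WT (log2 fold change -1.85 ± 0.23 (SE), adjusted p = 0.00117). Coordinates are on the SL4.0 build of the deposited tables. Neither xyloglucan endotransglucosylases (19 tested) nor cellulose synthases (21 tested) had a called member, where 4.34% of all genes were called.

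Among small secreted proteins, 3 of 18 genes of the gibberellin list fell and none rose (16.7%, against 4.34% of all genes), with a median of -0.43. The 3 are all described as gibberellin-regulated proteins, small cysteine-rich peptides, and none is an enzyme of gibberellin synthesis. RSI-1 (Solyc11g011210) had 6.9, 7.34 and 9.85 CPM in cr, against 58.4, 28.1 and 77.3 CPM in WT (log2 fold change -2.76 ± 0.32 (SE), adjusted p = 0.000695). The snakin-type gene Solyc04g078195 had 38.7, 36.2 and 41 CPM in cr, against 69.7, 74.7 and 73.9 CPM in WT (log2 fold change -0.91 ± 0.15 (SE), adjusted p = 0.00652). Lipid-transfer proteins, which carry lipids to the surface, had a median of -0.72, and 4 of 29 were lower (13.8%). The list summed to 517, 422 and 683 CPM in cr, against 678, 880.4 and 1253 CPM in WT, with WT replicate 3 the highest, and 0 members were called without that library. In the seed list the oleosin gene Solyc06g060840, of oil bodies, had 3.28, 6.85 and 1.55 CPM in cr, against 30.6, 16.3 and 52.1 CPM in WT (log2 fold change -3.08 ± 0.45 (SE), adjusted p = 0.00323). The seed storage globulin gene Solyc03g005580 went the other way, with 19.6, 20 and 27.8 CPM in cr, against 0.567, 2.47 and 4.86 CPM in WT (log2 fold change 3.10 ± 0.50 (SE), adjusted p = 0.00632).

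Called genes of aroma, flavonoid synthesis and lipid oxidation were lower in cr, those of the carotenoid list went both ways, and few were stable. The alcohol acyltransferase gene Solyc08g005770, whose enzyme forms fruit esters, had 113, 95 and 76 CPM in cr, against 345, 213 and 455 CPM in WT (log2 fold change -1.83 ± 0.27 (SE), adjusted p = 0.00294). It overlaps an opposite-strand feature with 5764 counts. Alcohol dehydrogenase 2 (Solyc06g059740), which interconverts aldehydes and alcohols, had 915, 955 and 1155 CPM in cr, against 1511, 2052 and 1935 CPM in WT (log2 fold change -0.86 ± 0.19 (SE), adjusted p = 0.0252), a call lost without cr replicate 1 or 2 or WT replicate 2 or 3. LOXC (Solyc01g006540), the lipoxygenase behind fruit aldehydes, had 8.96, 11.2 and 13.1 CPM in cr, against 36.3, 19.7 and 53.2 CPM in WT (log2 fold change -1.72, adjusted p = 0.0283). The LOXC call was lost without WT replicate 1 or 3 or any 1 cr library. In the jasmonate and lipoxygenase list 4 of 35 fell and none rose (11.4%, against 4.34% of all genes), and none of the 4 was stable. Geranylgeranyl pyrophosphate synthase 2 (Solyc04g079960), which supplies carotenoid synthesis, had 3.67, 3.13 and 2.52 CPM in cr, against 9.07, 8.15 and 14.6 CPM in WT (log2 fold change -1.77 ± 0.31 (SE), adjusted p = 0.00894). PSY1 (Solyc03g031860), the phytoene synthase of red fruit, had 827, 626 and 556 CPM in cr, against 1198, 667 and 1144 CPM in WT, and its groups overlapped (log2 fold change -0.58, adjusted p = 0.26). The carotenoid list had 2 higher and 2 lower of 36 (11.1%). The higher ones, neither of them stable, encode violaxanthin de-epoxidase and zeaxanthin epoxidase, which interconvert xanthophylls in the chloroplast. Of 14 flavonoid genes 2 fell (14.3%), the chalcone synthases CHS1 and CHS2. CHS1 (Solyc09g091510) had 0.685, 0.645 and 1.07 CPM in cr, against 28.5, 1.16 and 16 CPM in WT. WT replicate 2 lay near the cr libraries for CHS1, and both calls were lost without WT replicate 1 or 3 or any 1 cr library (highest adjusted p = 0.0947 and 0.213).

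Of the lists of specialised metabolism and transport, some had mainly lower genes and others had calls both ways, where over all genes 338 were higher and 515 lower. Of 102 cytochrome P450 genes 9 fell and none rose (8.82%, against 4.34% of all genes), with a median of -0.24. The lower calls numbered 4 to 9 with 1 library left out, and 4 without WT replicate 3. Solyc04g071800, whose Swiss-Prot match is a homoterpene synthase, had 58.9, 66.3 and 71.3 CPM in cr, against 160.0, 163 and 209 CPM in WT (log2 fold change -1.44 ± 0.16 (SE), adjusted p = 0.00056). A P450 of the wider domain class, Solyc07g055460, was higher, with 11.2, 6.55 and 16.8 CPM in cr, against 2.22, 3.31 and 1.47 CPM in WT (log2 fold change 2.30 ± 0.35 (SE), adjusted p = 0.00365). Of 129 UDP-glycosyltransferases 3 rose and 8 fell (8.53%), none of them stable. In the list of nitrate, potassium, phosphate and peptide transporters 9 of 94 fell and none rose (9.57%), 2 to 7 with 1 library left out and 2 without WT replicate 3. The stable members were adjacent paralogs of the NRT1/PTR nitrate and peptide transporter family. Solyc03g113420 had 14.1, 11.5 and 14.9 CPM in cr, against 26.3, 24.2 and 26.2 CPM in WT, and Solyc03g113430 had 19, 19.9 and 14.1 CPM in cr, against 27.4, 36.4 and 31.2 CPM in WT. Reads of such close copies may be split between them. ABC transporters had 3 higher and 2 lower of 73 (6.85%), glycoalkaloid and sterol enzymes 1 higher and 1 lower of 26 (7.69%), and aquaporins none of 5. A run of 3 purine permease genes on chromosome 2 (Solyc02g071050, Solyc02g071080 and Solyc02g071090), chosen after their values were seen, was lower by 1.22, 1.19 and 1.0 on the log2 scale. The asparaginase gene Solyc04g078460, whose enzyme frees ammonia from asparagine, had 5.53, 7.0 and 7.62 CPM in cr, against 38.7, 21 and 25.2 CPM in WT (log2 fold change -2.07 ± 0.31 (SE), adjusted p = 0.00354), and overlaps an opposite-strand feature with 447 counts. The thiamine synthesis gene Solyc06g006080 (phosphomethylpyrimidine synthase), chosen after its values were seen, had 132, 135 and 131 CPM in cr, against 259.8, 252 and 319 CPM in WT (log2 fold change -1.06 ± 0.11 (SE), adjusted p = 0.000426).

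Core histone genes were on the lower side in cr, and lists of other general cell functions had few or no calls. Of 50 histone genes 6 fell and none rose, with a median of -0.31, and 49 had a log2 fold change below 0. None of these calls was stable: the count ran from 0 to 8 with 1 library left out and was 0 without WT replicate 3. The summed histone level was 1752, 1744 and 1794 CPM in cr, against 2026, 1909 and 2419.9 CPM in WT, with no overlap and WT replicate 3 the highest. No cytosolic ribosomal protein gene of 193, no proteasome gene of 50 and no small heat shock gene of 26 passed the test. Medians of the 3 lists were 0.01, -0.08 and 0.12. Cyclins, DNA replication proteins and kinesins, of cell division, had 3 higher and 2 lower of 116 (4.31%), and tubulins and actins, of the cytoskeleton, 3 lower of 61 (4.92%). Other chaperones (HSP70, HSP90, DnaJ and chaperonins) had 5 higher and 3 lower of 141 (5.67%). DNA methylation and histone modifying enzymes had 2 lower (1.98% of those tested). None of the calls in these 4 lists was stable, and the share over all genes was 4.34%. Receptor-like kinases, sensors at the cell surface, had 3 higher and 16 lower of 329 (5.78%). F-box and ubiquitin ligase genes, whose products select proteins for breakdown, had 2 higher and 14 lower of 595 (2.69%), against 4.34% of all genes. Among them the F-box gene Solyc11g006740 rose, with 51.4, 45.9 and 52.1 CPM in cr, against 14.8, 18.6 and 16.5 CPM in WT (log2 fold change 1.58 ± 0.10 (SE), adjusted p = 3.75e-06), and overlaps an opposite-strand feature with 6536 counts. Another F-box gene, Solyc08g013760, was lower, with 10.9, 6.4 and 9.61 CPM in cr, against 28.7, 31.5 and 23.6 CPM in WT (log2 fold change -1.64 ± 0.23 (SE), adjusted p = 0.00251).

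**Figure D4:**
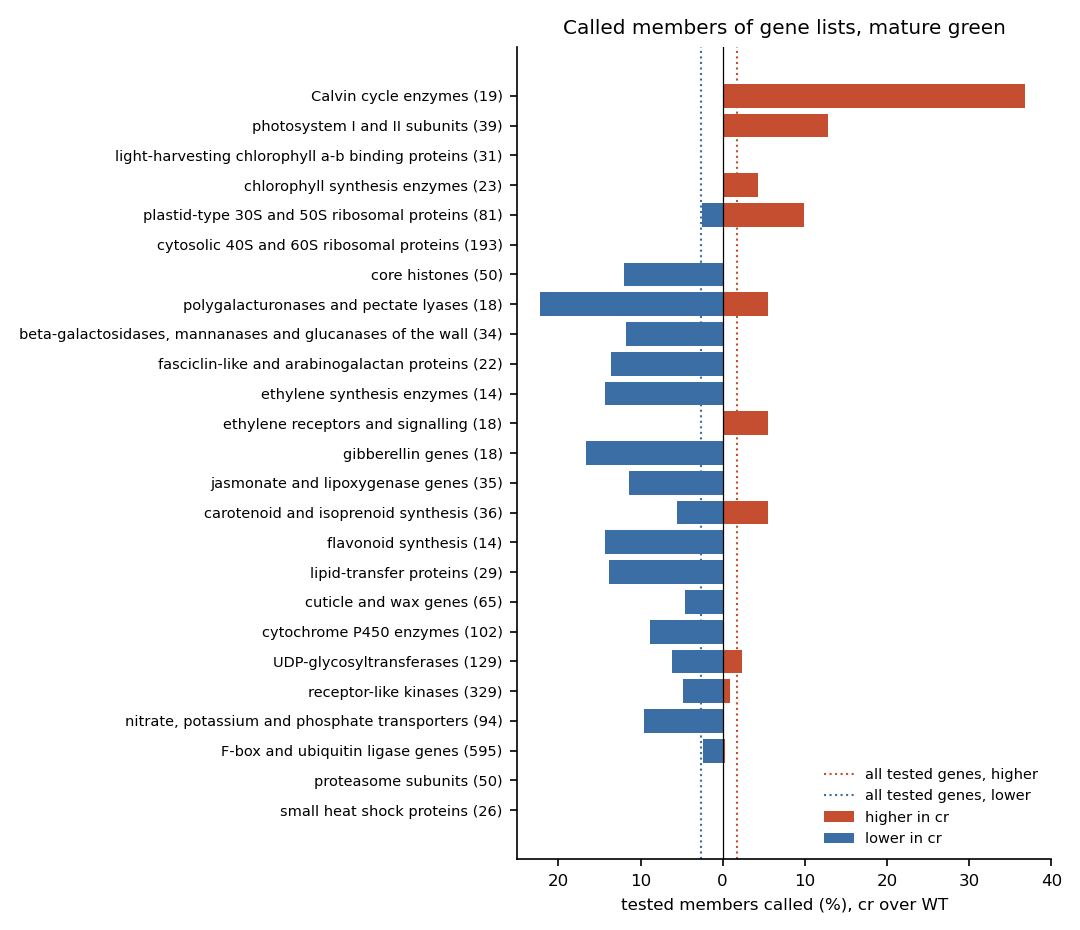
Percent of the tested members of 25 gene lists that were called higher (red, to the right) or lower (blue, to the left) in cr at mature green (x axis), with the number tested in brackets and dotted lines for all tested genes (1.72% higher and 2.62% lower). Calvin cycle genes have 7 of 19 higher, and no cytosolic ribosomal protein, proteasome, antenna or small heat shock gene is called.

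The share of transcription factors called was close to that of all genes. The deposited family column holds protein domain classes, many of them enzymes and kinases rather than transcription factors, and 106 of the 184 classes with at least 10 tested genes had a called gene. In 28 classes that hold transcription factors, 712 genes were tested, 5 rose and 20 fell, which is 3.51% against 4.34% of all genes. The auxin response, AP2, bHLH, WRKY, NAC, B3 and homeobox classes had at most 1 called gene each. ROC5 (Solyc06g035940) is a homeodomain protein with a START lipid-binding domain, of a family that acts in the epidermis of Arabidopsis. It had 45.7, 98.4 and 24.9 CPM in the cr libraries, against 392, 371 and 366 CPM in the WT libraries (log2 fold change -2.74 ± 0.38 (SE), adjusted p = 0.00212). The WT libraries lay close together, and the cr libraries, all well below them, differed more among themselves. A B-box factor of light signalling (Solyc12g089240) had 37.4, 34.7 and 29.7 CPM in cr, against 57.6, 58.9 and 84.6 CPM in WT, and a GRAS factor (Solyc07g065270) had 47.4, 49.1 and 49.1 CPM in cr, against 69.9, 74.6 and 88.2 CPM in WT. These fell by 0.98 and 0.68 on the log2 scale. A YABBY gene (Solyc07g008180) and an NLP-type nitrate response gene (Solyc08g013900), both chosen after their values were seen, were lower by 0.63 and 1.34.

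Clock genes appeared on both sides. In a group of 39 circadian clock genes put together after the values were seen, 1 rose and 5 fell (15.4%, against 4.34% of all genes). The lower calls numbered 1 to 3 with 1 library left out, and 2 without WT replicate 3. A REVEILLE gene (Solyc02g036370), of the morning-phased MYB type, had 64.1, 66.3 and 58.5 CPM in cr, against 42, 36.9 and 42.8 CPM in WT (log2 fold change 0.63 ± 0.11 (SE), adjusted p = 0.00796). A pseudo-response regulator gene (Solyc03g081240), of a type expressed later in the day in Arabidopsis, had 16.7, 13.7 and 19.1 CPM in cr, against 32.8, 30.2 and 36.8 CPM in WT (log2 fold change -1.01 ± 0.14 (SE), adjusted p = 0.0025). GIGANTEA (Solyc04g071990) had 234, 242 and 248 CPM in cr, against 310.2, 318 and 334 CPM in WT, a call lost with any 1 library left out (highest adjusted p = 0.136). The labels do not give the hour of sampling, and its part in these values was not tested.

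Several genes were expressed in 1 genotype and had no count in the other. An unannotated feature of chromosome 1 (48848943 to 48852724, minus strand) had no count in the cr libraries and 31.3, 35.6 and 31.6 CPM in WT, at least 670-fold lower in cr. Solyc12g150108 (chromosome 12, 38102907 to 38104858, plus strand), described as a RICESLEEPER-like BED zinc finger protein, had 31.1, 33.5 and 32.2 CPM in cr and no count in WT, at least 611-fold higher in cr. An unannotated neighbour (chromosome 12, 38106953 to 38113184, plus strand) was also without a count in WT, with 17.9, 24.5 and 21.9 CPM in cr, at least 405-fold higher. Solyc02g062815, a TFIID subunit gene of general transcription, had no count in cr and 440 in WT, at least 158-fold lower. These bounds set a floor of 3 counts over the 3 libraries at 0 and cover counting error only. In all, 15 called features had no count in 1 genotype at mature green. At breaker several of them were again nearly confined to 1 genotype. The chromosome 1 feature had 1 count in cr and 2143 in WT. Solyc12g150108 had 1634 in cr and none in WT, and its unannotated neighbour 1106 in cr and none in WT. Solyc06g008057 had 160 in cr and 1 in WT, and Solyc09g150112 none in cr and 74 in WT. Others had counts in both genotypes at breaker, such as Solyc10g047150, with 4 in cr and 61 in WT. The DCD domain gene Solyc09g074380, of a family tied to development and cell death, was near that extreme, with 1.86, 2.18 and 2.67 CPM in cr, against 44.5, 46.4 and 41.3 CPM in WT (log2 fold change -4.30 ± 0.18 (SE), adjusted p = 4.14e-08). An RNA-binding protein gene (Solyc04g071060) and a gene with no described function (Solyc01g095530) fell by 3.21 and 3.01 on the log2 scale. On the higher side stood a serine carboxypeptidase (Solyc05g041540), at 1.78, an AAA-ATPase (Solyc05g007470), at 1.38, and a disease resistance gene (Solyc12g044190), at 0.95.

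Called genes were spread over all 12 chromosomes, with 3.43% to 4.87% of the tested genes called on each, but 2 runs of neighbours stood out when positions were inspected afterwards. On chromosome 2, from 25792796 to 25842393, 7 of 8 tested features were higher in cr, 4 of them stable. They include a pair of genes for pathogenesis-related proteins, Solyc02g031940 with 29.9, 25.4 and 22.1 CPM in cr, against 5.31, 4.41 and 4.31 CPM in WT and Solyc02g031950 with 206, 116 and 156 CPM in cr, against 46.3, 32.1 and 41.7 CPM in WT. The pectate lyase gene Solyc02g031960 had a log2 fold change of 2.18, the urease accessory gene Solyc02g031980 of 0.96, and the called features of the run, 3 of them unannotated, ranged from 0.96 to 2.77. The calls of Solyc02g031960 and of 2 unannotated features were lost without WT replicate 3 (adjusted p = 0.0641 for Solyc02g031960). At breaker 2 of the 7 were called higher. On chromosome 4, from 56927248 to 57023770, 6 of 9 tested features were lower, 5 of them stable, and all 9 had a log2 fold change below 0. The signal peptidase gene Solyc04g072032 had 30, 32 and 36 CPM in cr, against 77.6, 69.9 and 79.7 CPM in WT, and the hypoxanthine phosphoribosyltransferase gene Solyc04g072039 had 23.6, 25.2 and 24.1 CPM in cr, against 48.8, 50.7 and 59.1 CPM in WT. The mitochondrial protein gene Solyc04g072047, described as MALE GAMETOPHYTE DEFECTIVE 1, had 141, 147 and 143 CPM in cr, against 287, 284 and 300.3 CPM in WT (log2 fold change -1.02 ± 0.08 (SE), adjusted p = 3.02e-05). Log2 fold changes of its called features ran from -1.21 to -0.66 before breaker and from -1.36 to -0.90 at that stage, and all 6 were called lower at both stages. Solyc04g072033 was the 1 whose call was lost, without WT replicate 1 or 3 or any 1 cr library.

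The breaker libraries share no sample with the mature green ones and show how far the early differences lasted. At breaker 25% of the 19664 genes were called, 14% higher and 11% lower in cr. Of the 853 genes called at mature green, 329 were called in the same direction at breaker, 110 in the other direction and 414 were not called there. The 329 are 38.6% of the mature green calls and 6.68% of the 4925 breaker calls. Of the 338 higher genes 159 were also higher at breaker and 29 were lower. Of the 515 lower genes 170 were also lower and 81 were higher. Among the 199 stable genes 114 were called the same way and 25 the other way. A gene's difference between genotypes changed with stage, by a test of the difference itself, for 332 of the 853 genes, where 13.1% of all genes did so. The 853 genes were chosen by their mature green difference, which enters this test, so their count cannot be set against that share.

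Groups differed in this respect, where 14% of all genes were higher and 11% lower in cr at breaker. Photosystem subunits, with 5 of 39 higher at mature green, had 23 higher and 0 lower at breaker, and antenna genes, with none called at mature green, had 14 higher and 2 lower of 31. Calvin cycle genes had 2 higher and 4 lower of 19 at breaker, and chloroplast translation factors 1 higher and 7 lower of 32. Their breaker medians were -0.11 and -0.09, near the 0.0015 of all genes. The translation factor list was put together after its mature green values were seen. Core histones, with 6 lower at mature green, had 21 higher and 0 lower of 50 at breaker. Phosphoribulokinase was higher in cr at both stages (log2 fold change 1.0 and 1.51), as ROC5 was lower at both (-2.74 and -2.52). E8, EXP1 and RSI-1 were lower at both stages, with mature green log2 fold changes of -2.11, -2.11 and -2.76, and -0.92, -0.98 and -1.02 later. FUL1 and GLK2, not called at mature green, had log2 fold changes of -1.23 and 2.30 at breaker (adjusted p = 7.37e-05 and 0.00179). The P450 gene Solyc04g071800 had a log2 fold change of -1.44 at mature green and 2.09 at breaker. The acidic glucanase gene Solyc04g016470 had -1.04 and 2.18 at the 2 stages in that order, and the fasciclin-like gene Solyc07g065540 -1.28 and 2.49. In these 3 genes cr was below WT at mature green and above it at breaker, each past the test.

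**Figure D5:**
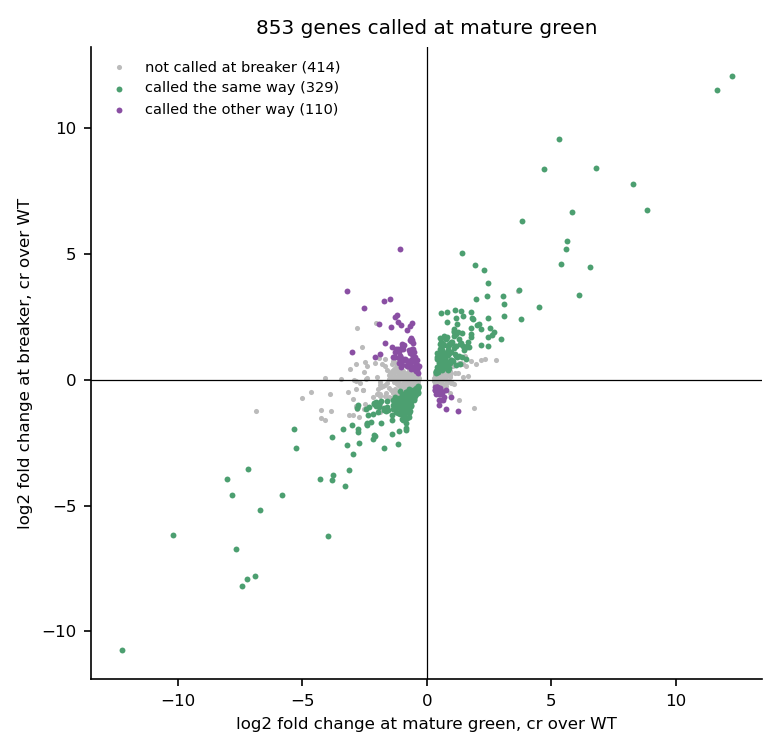
Log2 fold change of cr over WT at breaker (y axis) against that at mature green (x axis) for the 853 genes called at mature green. Green points (329) were called in the same direction at breaker, purple points (110) in the other direction and grey points (414) were not called there.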

How the data were processed

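Pericarp was flash-frozen, its RNA taken up in Trizol and sequenced on an Illumina NovaSeq, per the labels' protocols. Tools in the submitters' processing notes, listed without roles, are edgeR 3.22.5, DESeq2 1.20.0, featureCounts 1.5.0-p3, HISAT2 2.0.5 and fastp 0.23.1. The authors deposited whole-number read counts and FPKM per gene for 12 libraries (17703054 to 19426192 counts each), with coordinates on SL4.0. Deposited FPKM was used only to rank genes by abundance. The strand setting and the handling of reads that match several genes are not stated there.

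Genes passing edgeR's filterByExpr (minimum count 10, minimum total 15; 19664 of 35882) were tested with edgeR 4.0.16 in R 4.3.3: TMM scaling, a quasi-likelihood fit of 4 groups over 12 libraries, cr over WT within mature green, Benjamini-Hochberg adjustment over all genes, threshold 0.05. The SE is the log2 fold change over the square root of F. CPM uses TMM-scaled library sizes. The script was tested on simulated counts.

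Gene lists were matched to the deposited descriptions. The members, lists and named genes were chosen with earlier results of these data known. Named genes were known ripening genes, the 15 largest stable changes each way (mean at least 3 log2 CPM), up to 3 stable genes per list and 2 per domain class, the most abundant member of a list, and the 10 most abundant stable genes by FPKM. Not every gene the rule gives is printed. Alternatives were RLE, upper quartile or no scaling, no filter, DESeq2 1.42.0, 6 libraries, a replicate block and each library left out.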

Additional observations from a re-analysis of the deposited data

Results flagged for a closer look

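For 43 of the genes named in the report the difference between cr and WT was not the same at mature green and breaker, by edgeR's test of that difference over all genes (adjusted p under 0.05). Over all genes tested 13.1% met that mark. Many of the named genes were chosen for their mature green difference, which enters this test, so their count cannot be set against that share. Values below are the log2 fold change of cr over WT at mature green minus that at breaker.

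In 9 genes cr was below WT at mature green and above it at breaker, both called. The value was -4.10 for the hypothetical protein gene Solyc01g095530, -3.78 for the purine permease Solyc02g071050 and -3.77 for the fasciclin-like gene Solyc07g065540. It was -3.53 for the P450 gene Solyc04g071800, -3.22 for the acidic glucanase and -2.99 for the asparaginase gene Solyc04g078460. For the snakin-type gene Solyc04g078195, the nitrate transporter gene Solyc03g113430 and the YABBY gene it was -2.29, -1.64 and -1.42. The reverse order, cr above WT at mature green and below it at breaker, was called for GDP-L-galactose phosphorylase (1.17), the plastid transcription component gene (0.99) and the pectinesterase Solyc11g070175 (0.84).

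Other genes lower in cr at mature green, with a breaker difference closer to or above 0, were oleosin (-3.52), MAN4 (-3.07), RSI-1 (-1.75), the arabinogalactan gene Solyc07g053640 (-1.71) and the neighbours Solyc08g066690 (-1.61) and Solyc08g066700 (-1.58). Geranylgeranyl pyrophosphate synthase 2 had -1.52, beta-galactosidase 6 -1.44, the pseudo-response regulator -1.37, the thiamine synthesis gene -1.27 and the NLP-type gene -1.27. The nitrate transporter gene Solyc03g113420 had -1.21, the E6-like gene -1.19, EXP1 -1.13, the purine permease Solyc02g071080 -1.04 and GIGANTEA -0.66.

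Genes higher in cr at mature green, with a breaker difference closer to or below 0, were Solyc02g031950 (1.37), the urease accessory gene (1.07), elongation factor G (0.90), the F-box gene Solyc11g006740 (0.75), elongation factor Ts (0.68) and IF-2 (0.64). Ferredoxin-dependent glutamate synthase had 0.60, the thylakoid lumen gene 0.53 and L27 0.45. The P450 gene Solyc07g055460 (-2.07) and the stem-loop binding protein gene Solyc09g065180 (-0.93) were higher at both stages and more so at breaker. Of genes called at breaker and not at mature green, the antenna gene Solyc03g005760 had -3.08, GLK2 -2.77, FUL1 0.76 and TAGL1 0.38.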

How the results depend on the processing

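The count of 853 genes called at mature green became 1452 with DESeq2 (592 higher in cr and 860 lower), and 508 were higher in the fit to 6 libraries. With 1 library left out the count ran from 243 (without WT replicate 3) to 641 (without WT replicate 2), with 92 to 211 genes higher and 151 to 430 lower. Genes called the same way at breaker, 329, became 549 with DESeq2 and 127 to 383 with 1 of the 12 libraries left out, and those called the other way, 110, became 195 and 31 to 140. Other scalings and the fit without a filter gave 745 to 873 calls. The cause of these shifts was not tested.

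A fit with the replicate number as a block within each stage gave 581 calls, with 337 lower. The numbers are shared by both genotypes, and whether they pair the libraries is not given. Deviations from the group means at mature green correlated at -0.026, -0.080 and -0.152 for numbers 1, 2 and 3. At breaker the same pairs were at 0.049, 0.080 and -0.012. Pairs of unlike number at mature green ran from -0.067 to 0.134. Such correlations in groups of 3 libraries cannot show whether the numbers pair them. Over all named genes and alternatives, 2269 values kept their direction and side of the threshold, 77 lost a call, 20 gained one and 0 changed sign. Many named genes were chosen for keeping their call with each mature green library left out, and those fits are among the alternatives. The agreement is therefore partly fixed by the choice and does not describe called genes in general. Of all 853 calls, 237 were kept without WT replicate 3 and 311 without cr replicate 2 at mature green. With 3 libraries a side, genes at a few CPM that vary between replicates, such as ACS2 and PG2A, have wide errors.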
